A study of Mus musculus with 31 samples.

Results

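Rad51d, Slfn8, Epx, Cuedc1 and Utp18 are 5 mouse genes on chromosome 11 that lie within 10 Mb of Rps6kb1, which encodes the kinase S6K1. They are 5 of the 20436 gene symbols measured, and were chosen because their mRNA, footprints or translational efficiency differed in mouse cortex that carries the knockout allele of Rps6kb1. The material was brain cortex of mice at postnatal day 29 to 34, in 4 genotypes: wild type (WT), deficient in Fmr1 (FXS, named after fragile X syndrome), deficient in Rps6kb1 (S6K1), and deficient in both genes (DKO). S6K1 and DKO cortices therefore carry the Rps6kb1 allele, and WT and FXS cortices do not. Polyadenylated mRNA was sequenced in 16 libraries, 4 of each genotype. Ribosome footprints, the mRNA fragments that ribosomes protect from nuclease, were sequenced in 15 libraries: WT had 4, FXS had 5, and S6K1 and DKO had 3 each. The strain, the sex, the number of animals, how the allele was made, how far it was crossed into the WT strain, and whether both kinds of library came from the same animals were not given in the sources used here. No label says that replicates were separate animals, so the p-values measure only the spread between these libraries, which may be technical.

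S6K1 is a kinase downstream of mTORC1 that phosphorylates ribosomal protein S6 and translation factors, and FMRP, the product of Fmr1, binds mRNAs and restrains their translation in neurons. A knockout allele travels through crosses together with the DNA that flanks it. Where the allele was made in another strain than the WT animals, genes around it can therefore differ in sequence or expression between mutant and WT mice for a reason other than the lost protein. With 1 allele of Rps6kb1 and no rescue in the design, an effect of the missing kinase and a difference in the flanking DNA cannot be told apart here.

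The members have unrelated known functions. Rad51d acts in DNA repair by homologous recombination. Slfn8 belongs to the Schlafen family, which is known from immune cells and interferon responses. Epx is eosinophil peroxidase, a granule enzyme of eosinophils that is not a known product of brain cells. Cuedc1 encodes a protein with a CUE domain, a fold that binds ubiquitin. Utp18 is a component of the small-subunit processome, the particle that processes the precursor of 18S ribosomal RNA in the nucleolus. In RefSeq on build GRCm38.p6 (mm10), Rad51d spans chr11:82871960-82890624 and Slfn8 chr11:83002125-83020810. Rps6kb1 follows at chr11:86498869-86544885, then Epx at chr11:87863997-87875536, Cuedc1 at chr11:88099146-88194140 and Utp18 at chr11:93859243-93885766.

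The promoter sequences are shown because the members share a chromosome region and an allele, and this is where a common sequence feature could be looked for. RefSeq promoters were found for 4 of the 5 members and none was found for Rad51d. Each line gives the 150 bases that end just before the first annotated transcript start, 5′ to 3′ on the strand of the gene, from the reference genome and not from these mice. Capitals mark matches on either strand to the core promoter motif TATAAA, the E-box letters CACGTG, the ETS-type letters CCGGAAG or the motif CCAAT; no overlap between different motifs occurred in the lines shown. The Epx line is chr11:87875537-87875686 on the minus strand, the Cuedc1 line chr11:88098996-88099145 on the plus strand, the Slfn8 line chr11:83020811-83020960 on the minus strand and the Utp18 line chr11:93885767-93885916 on the minus strand.
Epx: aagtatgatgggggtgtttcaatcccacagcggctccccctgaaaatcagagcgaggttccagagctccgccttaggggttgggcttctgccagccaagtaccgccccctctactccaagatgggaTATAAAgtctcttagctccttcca
Cuedc1: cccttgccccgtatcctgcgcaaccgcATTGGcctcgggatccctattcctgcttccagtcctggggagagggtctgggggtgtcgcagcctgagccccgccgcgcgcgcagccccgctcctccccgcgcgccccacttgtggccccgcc
Slfn8: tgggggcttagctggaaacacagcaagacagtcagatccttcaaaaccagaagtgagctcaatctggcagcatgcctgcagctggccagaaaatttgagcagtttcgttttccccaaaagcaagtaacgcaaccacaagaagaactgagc
Utp18: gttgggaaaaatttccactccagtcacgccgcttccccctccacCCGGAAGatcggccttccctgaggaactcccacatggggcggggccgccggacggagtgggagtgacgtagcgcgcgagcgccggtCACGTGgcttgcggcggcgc

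No motif of these 4 was shared by all 4 promoters. Over the 250 bases before the start, TATAAA was found in Epx and in 12.4% of all 32851 promoters, and CCAAT, read as ATTGG on the other strand in Cuedc1, was found in Cuedc1, Utp18 and 33.8% of all promoters. The Utp18 promoter also held CACGTG, present in 6.02% of promoters, and CCGGAAG, present in 6.91%. It had 22 CpG dinucleotides in those 250 bases and 63.2% G and C, Cuedc1 had 16 and 66.8%, Epx had 5 and 55.2%, and Slfn8 had 3 and 48.0%. The median promoter had 6. Of the 4 promoters shown, those of Epx and Slfn8 had fewer CpGs than the median promoter, and those of Cuedc1 and Utp18 had more. A second annotated start of Cuedc1 had 3 CpGs and 38.0% G and C. The promoter of Rps6kb1, whose mRNA was also lower in carriers, had 17 CpGs. No link between CpGs and the direction of the mRNA difference is therefore read from these promoters. A match or its absence describes these letters only.

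The RNA libraries held 12.1 to 17.3 M counts over coding sequence (median 14.1 M, where M stands for mega) and the footprint libraries 16.6 to 34.9 M (median 24.2 M). Levels are given as CPM, counts scaled to a common library total after TMM, and intervals of counts cover counting error only. The targeted gene went with the labels in the footprints, where WT libraries had 28.9 ± 2.48 CPM of Rps6kb1 (SD, n = 4) and FXS libraries 32.5 ± 2.72 (n = 5), while S6K1 libraries had 10.2 ± 2.58 (n = 3) and DKO libraries 11.6 ± 0.352 (n = 3), with no overlap between carriers of the allele and the others. Its mRNA fell by 0.47 on the log2 scale in both Fmr1 backgrounds, and 6 of the 8 carrier libraries lay below all 8 others. Cortical neuron markers were abundant in every RNA library, with a summed level of 8 genes between 3720 and 5690 CPM, and markers of striatum were detected too. The 4 RNA libraries of batch 5 stood apart: their genotype-centred values correlated at a median of 0.60 with each other and -0.33 with the other batches, and their summed microglial markers were at 62.3 to 90.1 CPM against 198 to 264 CPM in batches 6 to 8. Each RNA batch held every genotype once.

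The selection rested on the values that follow, which are therefore given without a claim of significance. Genes were called at an adjusted p under 0.05 over all tested genes (edgeR quasi-likelihood test, Benjamini-Hochberg). For mRNA, S6K1 against WT called 0.0211% of 14215 genes, 2 of the 5 members among them: Rad51d (adjusted p 0.0217, equal to that of Rps6kb1) and Epx (0.0328). Just outside were Slfn8 and Wfdc18, which lies between Slfn8 and Rps6kb1, at 0.141 each. DKO against FXS called 0.0281% of genes in mRNA, again 2 of 5 members: Cuedc1 and Slfn8 (both 0.0133), with Smg1 of chromosome 7 the last inside (0.0389) and Epx (0.0617) and Rad51d (0.0779) outside. Utp18 was chosen on its footprints in DKO, where it was called at 0.00200 against FXS and the next gene, Tubd1, was at 0.680. DKO against FXS called 0.0143% of 13953 genes in footprints and 1 of the 4 members tested, while S6K1 against WT called 0.00717% and 0 of 4. In TE, the ratio of footprints to mRNA, S6K1 against WT called 0.0293% of 13654 genes and 1 of 4 members, and DKO against FXS called 0.0146% and 1 of 4. These calls were close to the threshold: leaving out 1 of the 8 RNA libraries compared ended the call in 7 of 8 cases for Rad51d, 7 of 8 for Epx, 5 of 8 for Slfn8 and 3 of 8 for Cuedc1. The log2 differences then ranged from 0.55 to 0.68 for Rad51d, from -6.65 to -4.48 for Epx, from -3.34 to -2.52 for Slfn8 and from 0.58 to 0.69 for Cuedc1. All 5 members passed the filter on low counts in mRNA, and 4 of 5 passed it in footprints and TE, where Epx did not.

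Over both backgrounds together, the mean of the carrier differences called 0.239% of genes in mRNA and 4 of 5 members, 0.0143% in footprints and 1 of 4, and 0.0586% in TE and 2 of 4. For each member this mean contains the contrast that chose it, so nothing is read from the members' shares. In mRNA, the 8 carrier libraries and the 8 others did not overlap for 0.0352% of the tested genes. These were Rad51d, Slfn8, Epx and Cuedc1, and Golga2 of chromosome 2, which was named after its values were seen. In footprints the 6 carriers and the 9 others did not overlap for 0.143% of genes, 20 in all. Of these, 10 lie on chromosome 11, among them Slfn8, Utp18, Rps6kb1, Wfdc18 and Coil. Footprint batch 1 held only S6K1 replicate 1 and DKO replicate 1, so for these carriers allele and batch cannot be told apart.

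**Figure D1:**
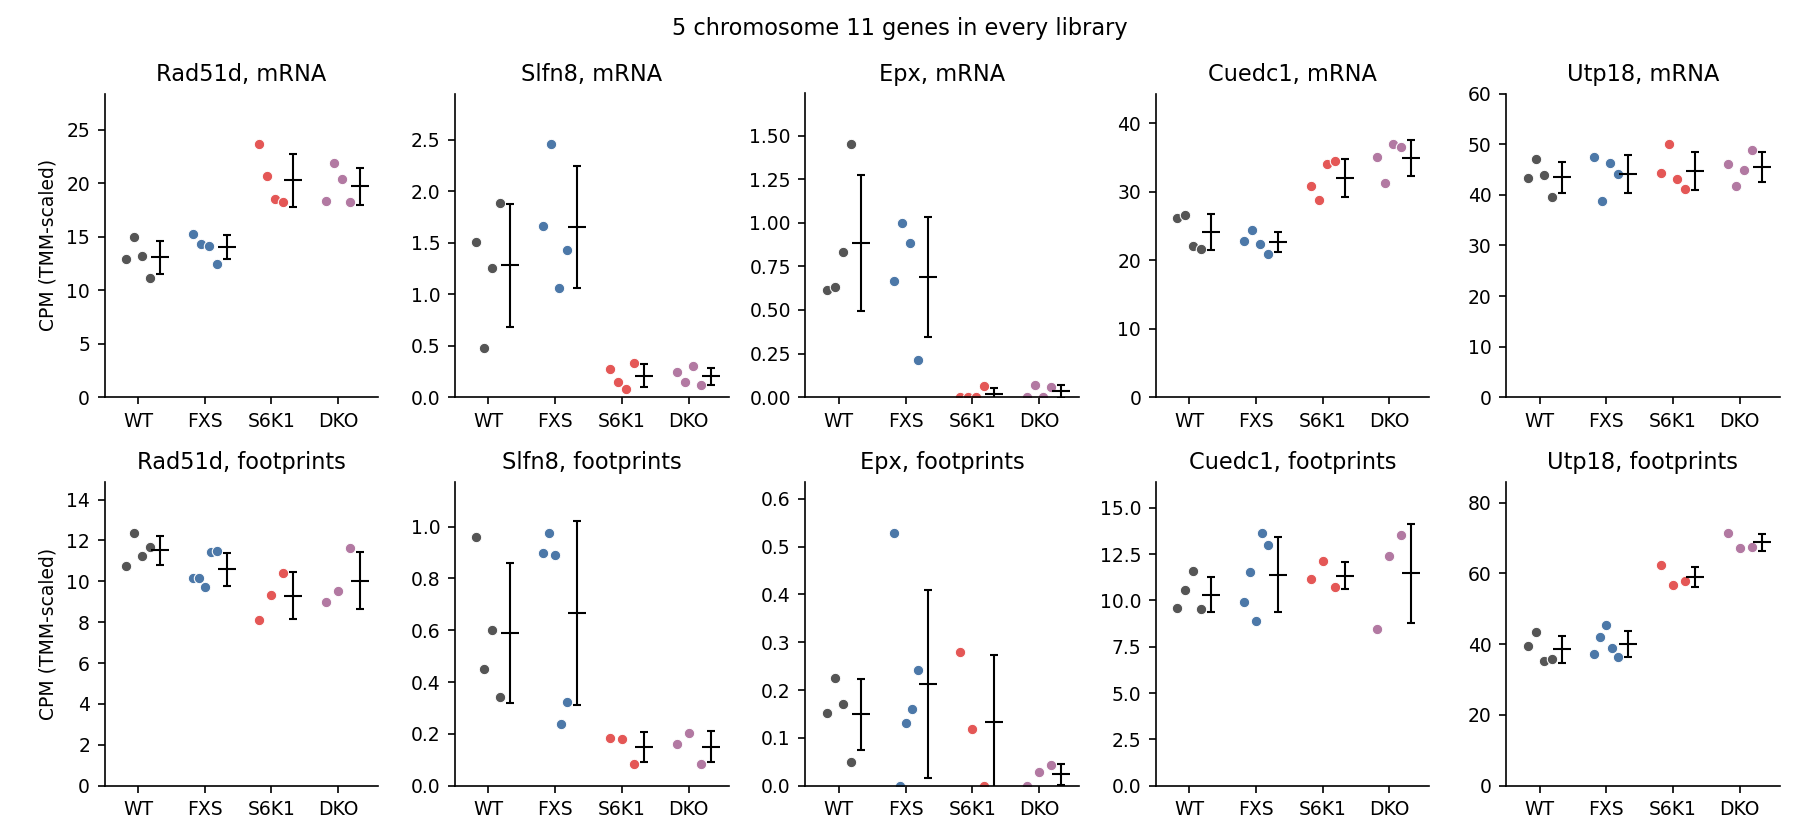
Level of each of the 5 genes in every library, in TMM-scaled CPM, with mRNA above and footprints below. Points are libraries, the bar beside each genotype is the mean with its SD (cut off at 0 for Epx), and every axis starts at 0. In mRNA the carriers (S6K1 and DKO) lie wholly above the others for Rad51d and Cuedc1 and wholly below them for Slfn8 and Epx, and in footprints they lie wholly above for Utp18 and wholly below for Slfn8.

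Rad51d mRNA was higher in carriers, and its footprints were not. In the order of RNA batches 5 to 8, which holds for all mRNA values below, its level was 12.9, 14.99, 13.2 and 11.2 CPM in WT and 15.2, 14.4, 14.1 and 12.5 CPM in FXS. It was 23.7, 20.7, 18.5 and 18.2 CPM in S6K1, and 18.4, 21.9, 20.4 and 18.3 CPM in DKO. Every carrier library was above every other library. Means were 13.1 ± 1.56 CPM for WT, 14.1 ± 1.15 for FXS, 20.3 ± 2.52 for S6K1 and 19.7 ± 1.74 for DKO (SD, n = 4 each), and carriers had 1.47 times the level of the others. The log2 difference was 0.64 between S6K1 and WT, the contrast that chose the gene. In DKO against FXS, which shares no library with it, the difference was 0.49 ± 0.100 (SE), with an unadjusted p of 6.33e-05 and an adjusted p of 0.0779, so that it did not pass the threshold (95% interval 0.29 to 0.69). Over the alternatives tried, that adjusted p ran from 0.0271 with DESeq2 to 1.00 without the batch term. The members were chosen with earlier results of these data known, so for every member a test in the other background is no independent evidence. Cortex is a mixture of cells, and fewer cells of a type and less RNA per cell cannot be told apart in these bulk values.

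Footprints of Rad51d were at 10.8, 12.4, 11.2 and 11.7 CPM in WT and at 10.2, 10.2, 9.73, 11.4 and 11.5 CPM in FXS. They were at 8.13, 9.34 and 10.4 CPM in S6K1 and at 8.97, 9.50 and 11.6 CPM in DKO. The groups overlapped, and 4 of the 6 carrier libraries lay below all others, the opposite side from the mRNA. DKO against FXS gave a footprint difference of -0.02 ± 0.111 on the log2 scale (adjusted p 0.971, 95% interval -0.24 to 0.20), while the interval of the mRNA difference began at 0.29. TE was -0.81 in S6K1 against WT, a description, since that contrast shares its mRNA values with the choice. In DKO against FXS, TE was -0.50 ± 0.142 (p 0.00142, adjusted p 0.458, interval -0.78 to -0.23), and the adjusted p over alternatives ranged from 0.143 to 0.999.

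Slfn8 was lower in carriers in both mRNA and footprints, from a level that was already low. The RNA libraries held 22, 6, 15 and 26 counts in WT and 30, 32, 18 and 20 counts in FXS. They held 4, 2, 1 and 5 counts in S6K1, and 4, 2, 4 and 2 counts in DKO. Mean levels were 1.28 ± 0.597 CPM for WT and 1.65 ± 0.592 for FXS, against 0.209 ± 0.114 for S6K1 and 0.202 ± 0.0846 for DKO (SD, n = 4 each). No carrier library reached the lowest of the others in CPM, although WT replicate 2, with 6 counts, came near. The summed counts gave a ratio of S6K1 to WT of 0.167 (95% exact interval 0.0825 to 0.311), and of DKO to FXS of 0.124 (0.0619 to 0.226). The fitted log2 difference was -3.00 in DKO against FXS, which chose the gene, and -2.53 ± 0.511 (SE) in S6K1 against WT (p 4.95e-05, adjusted p 0.141, 95% interval -3.53 to -1.53). Without WT replicate 2 the latter was -2.91 with an adjusted p of 0.0325, the only one of 14 alternatives in which it was called; over all 14 the adjusted p ran up to 0.556. Slfn8 reached the filter's minimum of 0.709 CPM in 7 of the 8 libraries without the allele and in 0 of 8 carriers, so the p is conditioned on the group where the gene was high.

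Footprints of Slfn8 were also fewer in carriers. They numbered 19, 12, 21 and 7 in WT and 17, 17, 27, 6 and 8 in FXS. In carriers they numbered 4, 3 and 2 in S6K1, and 4, 7 and 2 in DKO. Scaled to depth, the highest carrier library was at 0.205 CPM and the lowest other library at 0.240 CPM, so the groups did not overlap but nearly met. The ratio of summed counts was 0.249 (95% exact interval 0.108 to 0.505) for S6K1 to WT and 0.244 (0.124 to 0.443) for DKO to FXS. In S6K1 against WT the log2 difference was -2.45 ± 0.535 (p 0.000358, adjusted p 0.222, interval -3.50 to -1.40), and the adjusted p over alternatives ranged from 0.127 to 0.569. Here too 0 of the 6 carriers reached the filter's minimum of 0.414 CPM, against 6 of 9 others. TE in that contrast was 0.10 ± 1.10 (adjusted p 0.989), a standard error too large at these counts to place it on either side of 0.

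Epx mRNA was detected in 8 of 8 libraries without the allele and gave 3 counts in all 8 carriers. The counts were 9, 8, 10 and 20 in WT and 12, 13, 15 and 3 in FXS. They were 0, 0, 0 and 1 in S6K1, and 0, 1, 0 and 1 in DKO. The lowest library without the allele, FXS replicate 4 with 3 counts, still lay above every carrier. The ratio of summed counts was 0.0205 for S6K1 to WT (95% exact interval 0.000508 to 0.120), the choosing contrast, and 0.0480 for DKO to FXS (0.00563 to 0.184). The test of DKO against FXS gave a fitted log2 difference of -4.08 ± 0.807 (p 3.90e-05, adjusted p 0.0617), which did not pass; fitted values of a gene this close to 0 depend on the prior count. Epx also reached the filter's minimum of 0.709 CPM in 5 of the 8 libraries without the allele and in 0 of 8 carriers, so it was tested only because WT and FXS were high, and the p is no independent evidence of a difference. It passed in 2 of 14 alternatives: without FXS replicate 4 (-4.76, adjusted p 0.0186) and with limma voom (-3.42, 0.0301), and the adjusted p otherwise rose to at most 0.335.

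The footprints of Epx were too few to be tested, and they did not separate the groups. There were 3, 6, 6 and 1 in WT, 10, 0, 4, 4 and 6 in FXS, 6, 2 and 0 in S6K1, and 0, 1 and 1 in DKO. S6K1 to WT had a ratio of 0.815 (95% exact interval 0.302 to 2.02), and DKO to FXS one of 0.117 (0.0134 to 0.472). One S6K1 library with 6 footprints thus carried most of the S6K1 total of 8.

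Most eosinophil genes other than Epx had few or no counts in mRNA, with Siglecf the exception. Ear1, Ear6 and Il5ra, an eosinophil ribonuclease pair and the interleukin 5 receptor, had 0 counts over the 16 libraries, and Prg3, Prg2 and Ccr3, granule proteins and a chemokine receptor of eosinophils, had 1, 2 and 8. The 12 genes of the eosinophil and peroxidase list without Epx, 3 of them at 0 in every RNA library, summed to 2.91 to 3.48 CPM for WT, 3.16 to 4.35 for FXS, 2.10 to 3.19 for S6K1 and 1.64 to 3.86 for DKO. The largest counts among the 12 were those of Lpo, with 332 over the RNA libraries, and Siglecf, a lectin of eosinophils, with 159. Siglecf had 30 and 59 counts in WT and FXS and 31 and 39 in S6K1 and DKO, and Ear2, another eosinophil ribonuclease, had 8, 8, 5 and 5. Lpo and Mpo, the lactoperoxidase and myeloperoxidase genes, are the relatives of Epx in the same peroxidase family. They also lie near Epx, and start 1.31 and 1.29 Mb after the start of Rps6kb1. Lpo had 90 and 103 counts in WT and FXS, and 60 and 79 in S6K1 and DKO, with a log2 carrier difference of -0.52 ± 0.205 (adjusted p 0.272), and Mpo had 10, 16, 2 and 6, too few to be tested. Lpo, the only gene of this list tested in footprints, differed there by -0.80 ± 0.273 with batch in the model (edgeR quasi-likelihood, adjusted p 0.309). Its mean footprint levels were closer, at 0.494 CPM in carriers and 0.567 CPM in the others. Of the carrier libraries, 3 lay below all others and 1, of S6K1, lay above them at 1.07 CPM. Mpo had 15, 10, 1 and 2 footprints in WT, FXS, S6K1 and DKO.

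Cuedc1 mRNA was higher in carriers by about as much as Rad51d. WT libraries were at 26.2, 26.6, 22.1 and 21.7 CPM, and FXS libraries at 22.8, 24.5, 22.4 and 20.9 CPM. S6K1 libraries were at 30.8, 28.8, 34.1 and 34.4 CPM, and DKO libraries at 35.1, 31.2, 37.0 and 36.5 CPM. The lowest carrier, S6K1 replicate 2, was above the highest of the others, WT replicate 2. In DKO against FXS, which chose the gene, the log2 difference was 0.63. In S6K1 against WT it was 0.41 ± 0.0972 (SE), with an unadjusted p of 0.000345 and an adjusted p of 0.316 (95% interval 0.22 to 0.60), and it was called in 0 of 15 alternatives, whose adjusted p ranged from 0.130 to 1.00. As for Rad51d, this p is no independent evidence, since the members were chosen with earlier results of these data known.

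The footprints of Cuedc1 did not show the separation seen in its mRNA. They were at 9.60, 10.6, 11.6 and 9.53 CPM in WT, at 9.90, 11.6, 8.91, 13.7 and 12.98 CPM in FXS, at 11.1, 12.1 and 10.8 CPM in S6K1, and at 8.45, 12.4 and 13.5 CPM in DKO. Both the lowest and the second highest library were of genotype DKO and all groups overlapped. In S6K1 against WT the footprint difference was 0.35 ± 0.153 (adjusted p 0.536, 95% interval 0.05 to 0.65), near the mRNA value, and TE differed by -0.06 ± 0.180 (adjusted p 0.957, interval -0.41 to 0.29). DKO against FXS gave 0.12 in footprints and -0.50 in TE, values that share libraries with the choice of the gene.

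Utp18 was the member whose mRNA did not separate the groups while its footprints did. Its mRNA was at 43.3, 47.0, 44.0 and 39.6 CPM in WT, 47.5, 38.8, 46.2 and 44.2 CPM in FXS, 44.4, 50.04, 43.2 and 41.1 CPM in S6K1, and 46.1, 41.8, 44.9 and 49.0 CPM in DKO. The 4 groups overlapped throughout, and the mean carrier difference was 0.04 on the log2 scale with a 95% interval of -0.08 to 0.16. Footprints were at 39.5, 43.3, 35.4 and 35.8 CPM in WT and at 37.3, 42.1, 45.5, 38.8 and 36.5 CPM in FXS. They were at 62.3, 56.7 and 58.0 CPM in S6K1 and at 71.5, 67.2 and 67.5 CPM in DKO. All 6 carriers lay above all 9 other libraries, with a mean ratio of 1.62, and the DKO libraries lay above the S6K1 libraries.

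The rule had used the DKO footprints of Utp18, so its differences of 0.72 in footprints and 0.69 in TE between DKO and FXS are a description. Without DKO replicate 3 of the footprints they were 0.61 (adjusted p 0.250) and 0.57 (0.311), and the TE call was lost without any 1 of 11 of the 16 libraries of these genotypes left out in turn. The values in S6K1 against WT were 0.52 and 0.48, and these share the WT libraries with the comparison of DKO with WT that also chose the gene. DKO against S6K1, which shares the DKO libraries with the choice, gave a footprint difference of 0.25 ± 0.0877 (SE; p 0.0119, adjusted p 0.502, 95% interval 0.08 to 0.42) and a TE difference of 0.22 ± 0.124 (adjusted p 0.406), and neither passed. A count over coding sequence cannot show where on the transcript the additional footprints lie.

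**Figure D2:**
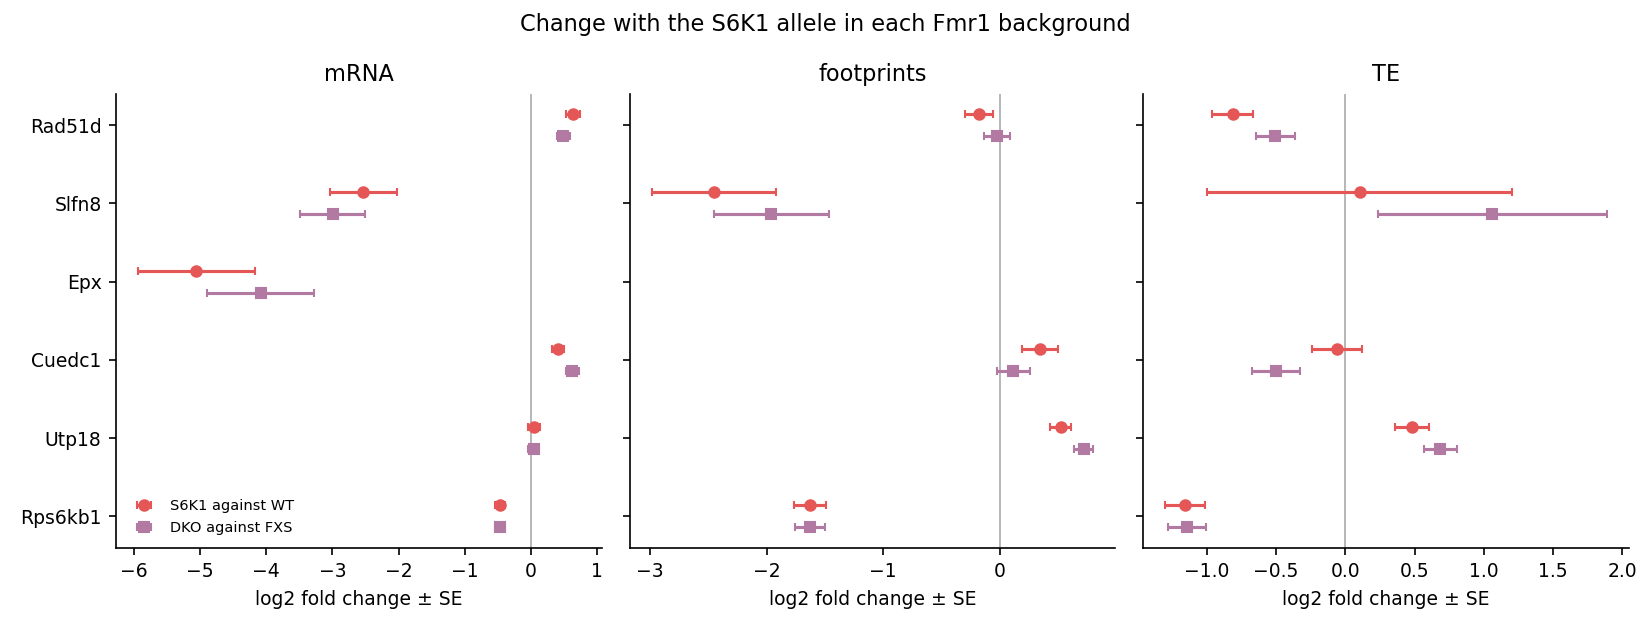
Log2 fold change with its SE for S6K1 against WT (circles) and DKO against FXS (squares), for mRNA, footprints and TE, with Rps6kb1 as the targeted gene. Epx has no footprint or TE value because it did not pass the filter. In mRNA the 2 backgrounds lie on the same side of 0 for each gene, at 0.64 and 0.49 for Rad51d and at 0.41 and 0.63 for Cuedc1.

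No member passed the threshold in a comparison of Fmr1 genotypes. FXS against WT called 0.155% of genes in mRNA, 0.165% in footprints and 0.0952% in TE, and 0 members in each. At an unadjusted p under 0.05 there were 0 members, beside 12.7%, 9.87% and 13.4% of all genes in the same order. In mRNA the FXS against WT differences were 0.11 ± 0.104 (SE) for Rad51d, 0.37 ± 0.375 for Slfn8, -0.33 ± 0.472 for Epx and -0.09 ± 0.0984 for Cuedc1. DKO against S6K1, where both groups carry the allele, called 0.387% in mRNA, 0.00717% in footprints and 0.00732% in TE, with 0 members in each; at an unadjusted p under 0.05 there was 1, the footprints of Utp18, beside 8.67% of all genes in footprints. For Rad51d and Cuedc1 mRNA the DKO against S6K1 differences were -0.04 ± 0.0987 (95% interval -0.23 to 0.15) and 0.13 ± 0.0944 (-0.06 to 0.31). The test of whether the carrier difference itself depended on Fmr1 (edgeR quasi-likelihood, interaction) called 0 genes in mRNA, footprints and TE, with 497, 428 and 565 genes at an unadjusted p under 0.05 and no member among them. It gave -0.15 ± 0.143 for Rad51d mRNA (-0.43 to 0.13), 0.22 ± 0.136 for Cuedc1 mRNA and 0.20 ± 0.115 for Utp18 footprints.

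Differences within a batch were read from the values that chose the members, so they describe those values and support nothing further. Each of the 4 RNA batches gives an S6K1 minus WT and a DKO minus FXS difference of log2 CPM. All 8 were positive for Rad51d (0.27 to 0.86, median 0.54) and for Cuedc1 (0.11 to 0.80, median 0.62), and all 8 were negative for Slfn8 (-3.20 to -1.09) and for Epx (-2.95 to -0.83). Of all tested genes, 2.47% had the same sign in all 8 mRNA pairs. Utp18 mRNA was split, with 5 positive and 3 negative differences. In the footprints, the unbalanced batches left 4 pairs, in which Utp18 was higher in all 4 (0.42 to 0.84), Slfn8 was lower in all 4 (-2.00 to -1.11), and Rad51d was higher in 1 and lower in 3 (-0.25 to 0.02). Cuedc1 footprints were higher in all 4 (0.02 to 0.48) and Epx footprints lower in all 4 (-1.90 to -0.22), but with 4 pairs 19.98% of all tested genes had the same sign throughout. Without the 4 RNA libraries of batch 5, an alternative chosen after seeing the data, DKO against FXS was 0.55 for Rad51d (adjusted p 0.113) and -3.71 for Epx (0.147), and S6K1 against WT was 0.47 for Cuedc1 and -2.57 for Slfn8 (0.543 for both).

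**Figure D3:**
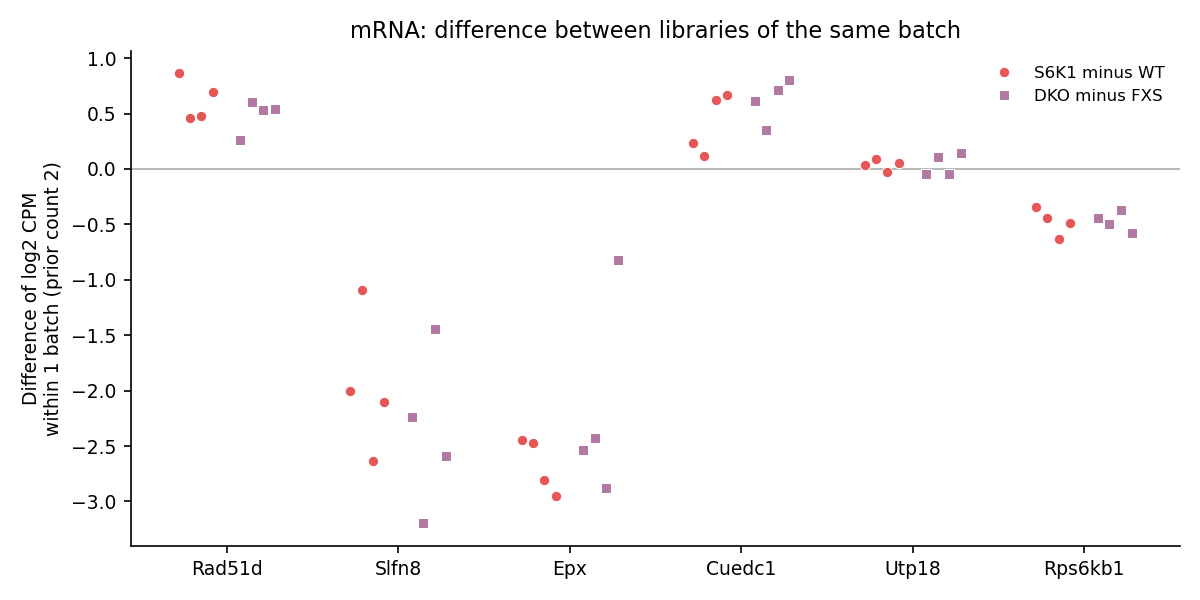
Difference of mRNA log2 CPM (prior count 2) between 2 libraries of the same batch, for S6K1 minus WT (circles) and DKO minus FXS (squares), 4 batches each. The 8 points of Rad51d and of Cuedc1 lie above 0, those of Slfn8, Epx and Rps6kb1 lie below it, and those of Utp18 straddle it.

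Leaving aside Rps6kb1 and the members, which were chosen for their place and change, the mean carrier difference in mRNA called 8 of 1146 tested genes on chromosome 11 (0.698%) and 20 of 13024 on the other chromosomes (0.154%), with 1 of 39 unplaced genes. By distance from Rps6kb1 these were 2 of 83 genes within 5 Mb, 1 of 111 from 5 to 10 Mb, 4 of 371 from 10 to 20 Mb and 1 of 581 farther away. With Rps6kb1 and the members the count within 5 Mb was 7 of 88. Rad51d starts 3.63 Mb and Slfn8 3.50 Mb before the start of Rps6kb1, and Epx, Cuedc1 and Utp18 start 1.37, 1.60 and 7.36 Mb after it. The members lie 40 and 34 tested genes before it and 21, 26 and 45 after it.

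**Figure D4:**
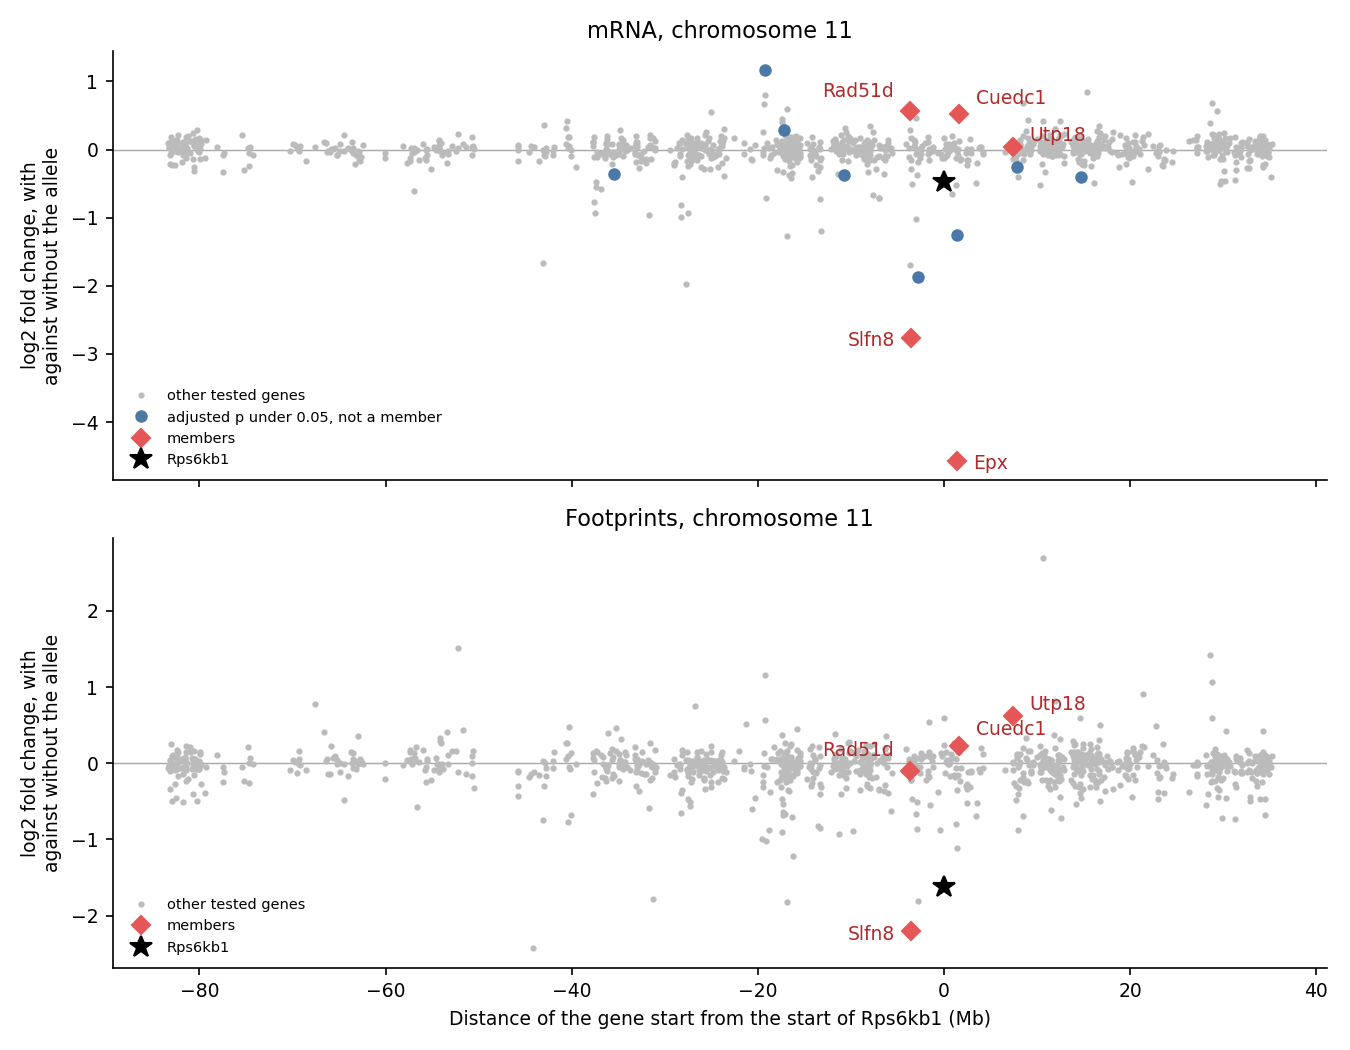
Mean log2 fold change of carriers against the others for each tested gene of chromosome 11, by distance of its start from the start of Rps6kb1, for mRNA (above) and footprints (below). Diamonds are the 5 members (Epx in mRNA only), the star is Rps6kb1 and blue circles are other genes with an adjusted p under 0.05. In mRNA, Rad51d (0.56) and Cuedc1 (0.52) lie above 0, as do other genes such as Myh4 (1.16). Epx and Slfn8 lie far below 0 and Utp18 is near 0. In footprints Utp18 (0.62) lies above 0, close to Tubd1 (0.60).

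Within 100 tested genes on either side of Rps6kb1, 3 of the 195 genes that are neither members nor Rps6kb1 were called in mRNA (1.54%), beside 0.239% of all genes, and 0 were called without the batch term. These were Wfdc18, which encodes a small secreted protein of the whey acidic protein family, Luc7l3, a splicing factor, and Olfr464, an olfactory receptor. Wfdc18 mRNA differed by -1.87 ± 0.338 (SE, adjusted p 0.0169), from 91 and 98 counts in WT and FXS to 15 and 43 in S6K1 and DKO. Olfr464 differed by -1.26 ± 0.265 (0.0430), from 126 and 110 counts to 55 and 44, and Luc7l3 by -0.25 ± 0.0464 (0.0185). Leaving out 1 RNA library ended the call of Olfr464 in 12 of 16 cases, of Luc7l3 in 5 and of Wfdc18 in 2. The libraries of these 3 genes overlapped between carriers and the others in mRNA. In footprints those of Wfdc18 did not overlap, at 0.208 to 0.723 CPM in carriers and 1.17 to 2.16 CPM in the others. Its footprint difference was -1.81 ± 0.297 (SE, adjusted p 0.0564, edgeR quasi-likelihood), just outside the threshold. In footprints and TE 0 of the 196 others were called (edgeR quasi-likelihood), with 37 and 29 at an unadjusted p under 0.05, which is 18.9% and 14.8% beside 11.2% and 10.7% of all genes. For mRNA the unadjusted share was 19.5% beside 13.4%.

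**Figure D5:**
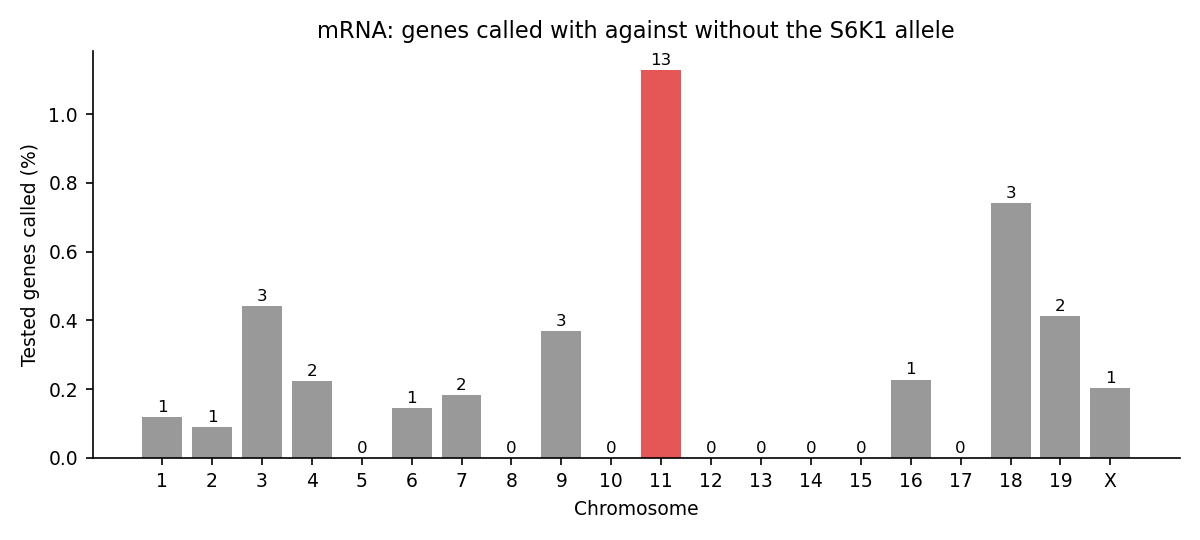
Percent of tested genes on each chromosome whose mRNA was called in the mean difference of carriers against the others, with the number of called genes above each bar. Chromosome 11, in red, has 13 called genes, 5 of which are Rps6kb1 and members that were chosen on these data.

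Of the 10 tested genes next to a member on either side, 1 was called in mRNA, Olfr464 after Epx. Rffl, which ends 723 bases before Rad51d, had an mRNA difference of 0.28 (adjusted p 0.262), and Fndc8, on the other side at 1520 bases, had one of -1.69 (0.0939). Fndc8 was low throughout, at 0 to 0.482 CPM in carriers and 0.237 to 2.00 CPM in the others. No carrier reached the filter's minimum of 0.709 CPM, so Fndc8 was tested only because libraries without the allele were high. Mks1, on the other side of Epx at 193 bases, was at -0.02 (0.975). Mbtd1, 83 bases from Utp18, was at -0.14 (0.468). Mrps23, whose annotated span overlaps Cuedc1 by 35 bases, was at -0.15 (0.307), and Vezf1, before Cuedc1, was at 0.13 (0.316). Car10, before Utp18, was at -0.04 (0.745). The genes next to Slfn8 are its relatives Slfn9 and Slfn2, which did not pass either (0.552 and 0.284). Whether counting used the strand was not given in the sources used here, so reads in the shared bases of Cuedc1 and Mrps23 cannot be assigned with certainty. Beside Rps6kb1, Tubd1 had higher footprints in 5 of 6 carriers than in all other libraries, with a difference of 0.60 ± 0.123 (adjusted p 0.128), and an mRNA difference of 0.17 (0.427).

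Related genes and partners of Slfn8, Cuedc1 and Utp18, taken from lists chosen with earlier results of these data known, gave 0 calls with the allele in mRNA (edgeR quasi-likelihood). Of all genes, 0.239% were called. Schlafen genes share sequence, so their counts are uncertain where reads could fall on more than 1 of them. The 3 other Schlafen genes tested were Slfn9 at 0.50 ± 0.342 (adjusted p 0.552), Slfn5 at -0.15 (0.796) and Slfn2 at -0.51 ± 0.209 (0.284), with a median of -0.15. Of 9 other CUE-domain genes, 0 were called and 3 had an unadjusted p under 0.05, beside 13.4% of all genes. Their median was -0.03, beside 0.01 over all genes. N4bp2 was at -0.35 (0.210) and Tollip, an adaptor of Toll-like receptor signalling, at 0.15 (0.232).

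Of the 37 tested genes of the small-subunit processome other than Utp18, 0 were called in mRNA, footprints or TE. Over all genes the called shares were 0.239%, 0.0143% and 0.0586%, so 0 calls in a list of this size say little. At an unadjusted p under 0.05 (edgeR quasi-likelihood) there were 7, 2 and 7 of the 37, beside 13.4%, 11.2% and 10.7% of all genes. Their median difference with the allele was -0.01 in mRNA, 0.04 in footprints and 0.05 in TE, beside 0.01, -0.01 and -0.02 over all genes. Wdr3 and Bms1, 2 components of the same particle, had footprint differences of 0.17 (adjusted p 0.384) and 0.16 (0.364) on the log2 scale, where Utp18 was at 0.62. Utp20 and Nol6 had mRNA differences of -0.21 (0.179) and 0.16 (0.182).

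Cell type markers in mRNA had median carrier differences of 0.09 for 8 neuronal genes, 0.11 for 7 oligodendrocyte genes, -0.09 for 5 astrocyte genes, -0.06 for 5 microglial genes, -0.28 for 6 tested blood genes and -0.42 for 4 endothelial genes, none of them called. Of the endothelial genes, 3 of 4 had an unadjusted p under 0.05 in mRNA (edgeR quasi-likelihood), beside 13.4% of all genes. The smallest adjusted p were those of Pecam1 (-0.47, 0.0897) and Tek (-0.60, 0.0939). The endothelial sum ranged from 17.9 to 72.6 CPM for WT, 21.3 to 82.1 for FXS, 12.4 to 45.6 for S6K1 and 12.6 to 48.2 for DKO, with its lowest values in batch 5 in every genotype. In footprints the medians were -0.08 for the neuronal, -0.29 for the oligodendrocyte, 0.02 for the astrocyte, -0.02 for the microglial, -0.06 for the blood, -0.71 for the endothelial and 0.49 for 5 striatal genes, again with none called. The endothelial footprints summed to only 3.55 to 6.81 CPM for WT, 2.60 to 8.48 for FXS, 4.98 to 5.30 for S6K1 and 2.38 to 6.24 for DKO. The median of -0.71 is from the fit with batch in the model, and these sums do not show a difference of that size. Oligodendrocyte markers had an unadjusted p under 0.05 for 5 of 7 genes in footprints and 6 of 7 in TE, beside 11.2% and 10.7% of all genes. In TE their median was -0.45 and 1 was called, beside 0.0586% of all genes. This was Cnp, a myelin enzyme gene that also lies on chromosome 11 (-0.45, adjusted p 0.0285). The 2 backgrounds were unlike. In S6K1 against WT, 6 of 7 oligodendrocyte genes had an unadjusted p under 0.05 in footprints (median -0.46) and 5 of 7 in TE (-0.52). In DKO against FXS there were 0 of 7 (-0.12) and 1 of 7 (-0.27). Cnp TE was -0.63 in S6K1 against WT (adjusted p 0.0352, edgeR quasi-likelihood) and -0.27 in DKO against FXS (0.567). The summed oligodendrocyte footprints ran from 2730 to 3957 CPM for WT, 1741 to 2635 for FXS, 2559 to 2774 for S6K1 and 1845 to 2602 for DKO. The striatal footprints summed to 102 to 403 CPM for WT, 89.4 to 305 for FXS, 123 to 373 for S6K1 and 70.6 to 178 for DKO. With batch in the model, their median was 0.62 for S6K1 against WT and 0.35 for DKO against FXS. In these 7 lists, 0 of the genes in the tables were at 0 in every library. The part of cell composition in the values of the 5 genes was not tested.

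The genes whose mRNA pattern over the 16 RNA libraries was most like that of each member were read from Pearson correlations of batch-centred log2 CPM, which describe libraries that share genotype, depth and preparation. For Epx these were Trpv3 of chromosome 11 (0.92), Slfn8 (0.90) and Rps6kb1 (0.87), and for Slfn8 they were Ahnak (0.90), Epx (0.90) and Rps6kb1 (0.89). For Rad51d they were the mitochondrial enzyme genes Mdh2 (0.92) and Got2 (0.91), and Ak1 (0.90). Cuedc1 was most like Ciapin1 (0.88), Ak1 (0.87) and Slc25a5 (0.87). Over the 15 footprint libraries, Utp18 was most like Dgki (0.90), Acap2 (0.88) and Mtmr4 of chromosome 11 (0.87).

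The authors' deposited tables compare DKO with WT and FXS with WT, and values of 3 members were read from them. For mRNA in DKO against WT, the authors' deposited table gives log2 fold changes of 0.59 for Rad51d (authors' adjusted p 0.000156), 0.53 for Cuedc1 (0.000216) and 0.06 for Utp18 (0.734). For footprints of the same comparison, the authors' deposited table gives 0.77 for Utp18 (1.07e-12), -0.13 for Rad51d (0.648) and 0.26 for Cuedc1 (0.401). For TE, the authors' deposited table gives -0.71 for Rad51d (0.0226), 0.72 for Utp18 (7.00e-05) and -0.25 for Cuedc1 (0.477). For FXS against WT in mRNA, the authors' deposited table gives 0.11 for Rad51d, -0.09 for Cuedc1 (0.728) and 0.03 for Utp18 (0.891). These comparisons use the same libraries as the fits above and are not a further replicate of them. Epx and Slfn8 were not analysed in those tables here.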

How the data were processed

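Polyadenylated mRNA and ribosome footprints were measured in the libraries described above. The authors deposited raw counts per gene symbol, 1 table per assay, which the file names describe as counts over coding sequence. The submitters' processing notes name cutadapt 2.0, Bowtie2, TopHat2 and RSEM and the build mm10, with no role or order, and the counting program, the annotation and the use of strand are not given in the sources used here. The authors' deposited comparison tables give, per the file headers, a mean signal of normalized counts, a log2 fold change, a test statistic (a score) and p-values. The deposited lists of batches were not used here.

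Counts were tested with edgeR 4.0.16 in R 4.3.3 by the robust quasi-likelihood test, with filterByExpr on genotype, TMM scaling within an assay, and genotype and batch in the model, all genotypes together. TE was the footprint contrast minus the mRNA contrast in 1 model of all libraries. P-values were adjusted over all tested genes (Benjamini-Hochberg). A standard error was taken as the log2 fold change over the root of F. Log2 CPM used a prior count of 2. The batch block comes from the labels, where RNA batches 5 to 8 each hold every genotype once and footprint batches 1 to 4 are unbalanced. Libraries of the same batch and different genotype correlated, after centring on genotype, at a median of 0.22 in mRNA and 0.25 in footprints, against -0.12 and -0.10 between batches. The mRNA, footprint and TE fits were each tested on simulated data with known changes. Small changes were recovered less often in footprints and TE than in mRNA. The simulated data had 1 dispersion for all genes and no batch effects. Only genes with a mean above 50 counts in both assays were changed, so genes of few counts such as Epx and Slfn8 were not covered. Alternatives were RLE scaling, no filter, DESeq2 1.42.0, limma voom (limma 3.58.1), no batch term, 2 genotypes alone, windows of 50 and 200 genes, each library left out, and, chosen after seeing the data, no batch 5.

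The members, lists and tests were chosen with earlier results of these data known. Named beside the members and Rps6kb1 were up to 10 called neighbours per measure, up to 4 genes per list with the smallest adjusted p in mRNA or footprints, the 3 most correlated genes of each member, and the relatives of Slfn8 and Epx. Genes directly beside a member, and genes just inside or outside a threshold, were added to these. Genes were placed by RefSeq symbol on GRCm38.p6. The list of genes that act with Rad51d is not reported here.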

Additional observations from a re-analysis of the deposited data

Results flagged for a closer look

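In S6K1 mRNA, replicate 4 was the highest of 4 libraries for Epx, at 0.0668 CPM (1 count), and stood apart because the other 3 libraries had 0 counts. It was the only one of 36 groups of 4 or 5 libraries examined, over the 5 members and Rps6kb1, in which a library stood that far from the rest. Chance marks about 1 in 20 such groups where values are not tied. That rate does not hold for counts tied at 0, so nothing is read from this mark.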

How the results depend on the processing

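Leaving out the batch block (libraries not paired by batch) gave 0 calls for mRNA and TE in either Fmr1 background. The fits with it had 3 and 4 in mRNA and 4 and 2 in TE, S6K1 against WT first. The mean carrier difference then called 4 genes in mRNA, footprints and TE alike (34, 2 and 8 with the block), with 0 neighbours in mRNA (3) and 1 in footprints (0). DESeq2 called 169, 106 and 59 genes in the mean difference, 5, 37 and 14 in S6K1 against WT and 28, 6 and 6 in DKO against FXS, each in the order mRNA, footprints, TE, with 7 neighbours in footprints and 2 in TE. Limma voom called 7 genes in DKO against FXS mRNA, 2 in S6K1 against WT TE and 16 in the mean TE, and RLE scaling 13 in the mean TE. Without the filter there were 8 in DKO against FXS mRNA, 5 in the mean footprints and 1 neighbour in footprints. With 2 genotypes alone there were 1 in S6K1 against WT mRNA, 22 in its footprints and 1 in DKO against FXS TE. A window of 200 genes held 5 called neighbours in mRNA and 2 in TE. Without batch 5, counts were 10 (mean), 0 (S6K1) and 2 (DKO) in mRNA, 3, 1 and 1 in TE, and 1 neighbour in mRNA.

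With each library left out in turn, the mean difference called 11 to 112 genes in mRNA (fewest without WT replicate 1 or DKO replicate 3, most without S6K1 replicate 4), 2 to 12 in footprints (most without FXS replicate 5) and 2 to 56 in TE (fewest without footprint DKO replicate 2, most without footprint FXS replicate 3). S6K1 against WT called 0 to 3, 1 to 3 and 1 to 12 genes in the same order, DKO against FXS 0 to 5, 1 to 4 and 1 to 2, and the neighbours numbered 1 to 5, 0 to 1 and 0 to 1. Values near 0 changed sign in 3 results: Rad51d footprints in DKO against FXS (-0.10 to 0.071, positive without DKO replicate 2), and TE in S6K1 against WT of Cuedc1 (-0.14 to 0.080) and of Slfn8 (-0.34 to 0.50). Utp18 footprints in DKO against FXS lost their call without DKO replicate 3 (0.61, adjusted p 0.250), and its TE call was lost without 11 of 16 libraries. Of 129 single-gene values under other settings, 106 kept direction and side of the threshold, 18 lost a call, 5 gained one and 0 changed sign. Fits of 2 genotypes alone gave no value for Epx in either Fmr1 background, or for Slfn8 in S6K1 against WT. DESeq2 gave no adjusted p for mRNA of Wfdc18 and Olfr464 or TE of Slfn8. Depth limits Epx and Slfn8, whose carrier libraries hold 0 to 7 counts each.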
